A study of Mus musculus with 4 samples.

Results

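Cycling apical progenitors of the embryonic mouse neocortex were described in single-nucleus RNA sequencing data as the nuclei that held at least 2 transcripts of Mki67, at least 2 of Top2a and at least 1 of Pax6, with no transcript of Eomes, Gad1, Gad2 or Lmx1a. Mki67 encodes a protein that coats mitotic chromosomes and Top2a the topoisomerase that untangles replicated DNA, and Pax6 is the transcription factor of dorsal apical progenitors. The excluded genes mark intermediate progenitors (Eomes), inhibitory neurons and their precursors (Gad1, Gad2) and the cortical hem (Lmx1a). Among 29656 nuclei with 1500 to 60000 transcripts, 1385 (4.67%) met the rule, chosen by these measured counts. They comprised 399 nuclei of Dnmt1 KO replicate 1 (KO 1), 521 of Dnmt1 KO replicate 2 (KO 2), 270 of control replicate 1 (control 1) and 195 of control replicate 2 (control 2), and values of all 4 libraries stand in this order throughout.

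Apical progenitors, or radial glia, are the neural stem cells that line the ventricle of the developing cortex. Their nuclei migrate with the cell cycle, replicating DNA away from the ventricle and dividing at its surface, and each division either renews the pool or yields neurons or intermediate progenitors, which carry Eomes and divide away from the surface. Genes of DNA replication peak in S phase under the E2F factors, and genes of mitosis peak in G2 and M phase under the DREAM and MuvB-FOXM1 complexes, which bind a promoter element called CHR, often found beside CCAAT boxes that the separate factor NF-Y binds.

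The study compared the medial neocortex of embryos at E16.5, a late stage of cortical neurogenesis. Control embryos (genotype Sst-Cre/tdTomato) and Dnmt1 KO embryos (Sst-Cre/tdTomato/Dnmt1 loxP2) all carried a Cre recombinase driven by somatostatin (Sst) and the tdTomato reporter. The KO embryos also carried loxP-flanked alleles of Dnmt1, the maintenance DNA methyltransferase. Each genotype had 2 libraries of nuclei from frozen tissue. Sst is a gene of inhibitory interneurons, so the progenitors described here are not the cells that the deletion was designed for, and the comparison by genotype asks whether they differ in a cortex whose somatostatin interneurons were meant to lack Dnmt1. The study describes the libraries of a genotype as brains of separate mice, and states for its experiments in general that different litters were used. The labels do not tie a library to an animal or litter.

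According to the labels, control 2 was in batch 2 and the other 3 libraries in batch 1. Its retained nuclei were deeper, with a median of 21140 transcripts against 12274 to 12401 in the others and 2.49 mapped reads per transcript against 1.65 to 1.66. Since batch 2 holds this library alone, genotype can be compared within a batch only in batch 1, with 1 control library. Replicate 1 of each genotype was high in Xist (1894 and 1733 CPM, summed transcripts scaled to an equal total per library, in the members) and replicate 2 was not (3.90 and 0.426 CPM), so each genotype held 1 library of either sex. No barcode was shared between libraries. The members held a median of 13351 to 21870 transcripts per nucleus and the non-cycling apical nuclei 10058 to 17671. A rule that asks for counted transcripts favours deep nuclei. Its demand for no transcript of Eomes, Gad1, Gad2 or Lmx1a works the other way and removes deep nuclei more often.

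By the rule, the members held medians of 12 to 17 Mki67, 9 to 15 Top2a and 3 to 7 Pax6 transcripts per nucleus, according to the library. The cycling part of the label was checked with Aspm, a spindle-pole protein of dividing apical progenitors that the rule did not use (chr1:139382486-139421829, plus strand, GRCm39). At least 1 Aspm transcript was present in 81.7%, 83.3%, 80.7% and 85.1% of the members. In Neurod6-positive nuclei, a class of neurons that should lack Aspm, the share was 2.28% to 3.99%, at medians of 15149 to 24879 transcripts per nucleus. These nuclei were also chosen to hold no Mki67, Top2a or Pax6 transcript, so a low share followed in part from that choice. Cycling Eomes-positive nuclei, described below, held Aspm in 76.3% to 87.6%, so Aspm does not tell apical from intermediate progenitors. After each nucleus was thinned to 5000 transcripts the shares were 61.9% to 66.5% in the members and 0.748% to 1.30% in the neurons. Sox2, a stem cell transcription factor, was detected in 40.1% to 73.3% of the members (16.6% to 26.3% after thinning) against 2.12% to 4.57% of the neurons (0.449% to 1.62%). Cycling Eomes-positive nuclei held Sox2 in 25.3% to 52.5% (12.5% to 18.8% after thinning). These shares were below those of the members in each library, but the ranges overlapped. The highest share of Sox2 in the members was in control 2, the deepest library, both before and after thinning.

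Sums of markers of other cell types in the members differed by type. The 6 ganglionic eminence markers left after the rule summed to 1.28 to 12.2 CPM per library, with 1 of them at 0 in every library, and the 5 hem markers to 22.8 to 43.9 CPM, with 1 at 0 throughout. The 5 choroid plexus markers summed to 0.213 to 0.887 CPM in 3 libraries and 17.2 CPM in KO 2. The 6 endothelial markers summed to 3.89 to 4.47 CPM in those 3 libraries and 41.9 CPM in KO 2. Sums were 9.29 to 35.0 CPM for the 5 mural, 5.96 to 8.72 CPM for the 6 microglial, 2.37 to 11.8 CPM for the 5 meningeal and 2.70 to 8.73 CPM for the 5 oligodendrocyte precursor markers. The 6 astrocyte markers, of which several are also made by radial glia, summed to 100.4, 177, 165 and 139.8 CPM, against 136, 126, 86.6 and 60.9 CPM in all other retained nuclei. The 4 markers of the hippocampal granule lineage summed to 253, 202, 146 and 97.0 CPM, above the 169.9, 109, 73.8 and 62.6 CPM of all other nuclei in each library. Scrublet called 5.01% to 10.8% of the members doublets, with the highest share in control 2, against 2.96% to 7.36% of all retained nuclei, and the main counts were also computed without these nuclei.

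The thresholds cut through a continuous range. Apical nuclei whose lower count of Mki67 and Top2a was exactly 1, just outside, numbered 63, 75, 49 and 42 in the 4 libraries. Their Aspm level was 58.3 to 87.9 CPM, and their S and G2/M list sums were 2878 to 3751 and 1970 to 2621 CPM. Members whose lower count was exactly 2, just inside, numbered 30, 40, 19 and 18, with Aspm at 50.4 to 129.7 CPM, S sums of 3863 to 4586 CPM and G2/M sums of 2430 to 4188 CPM. The members further inside held Aspm at 342 to 431 CPM, S sums of 2584 to 3025 CPM and G2/M sums of 8375 to 9709 CPM. In each library the nuclei just inside were thus richer in S transcripts and poorer in G2/M transcripts than the bulk of the members. Among apical nuclei counted as non-cycling, with no Mki67 and no Top2a, 49 of 382, 30 of 430, 20 of 274 and 16 of 205 held at least as many S list transcripts as the median member of their library.

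**Figure D1:**
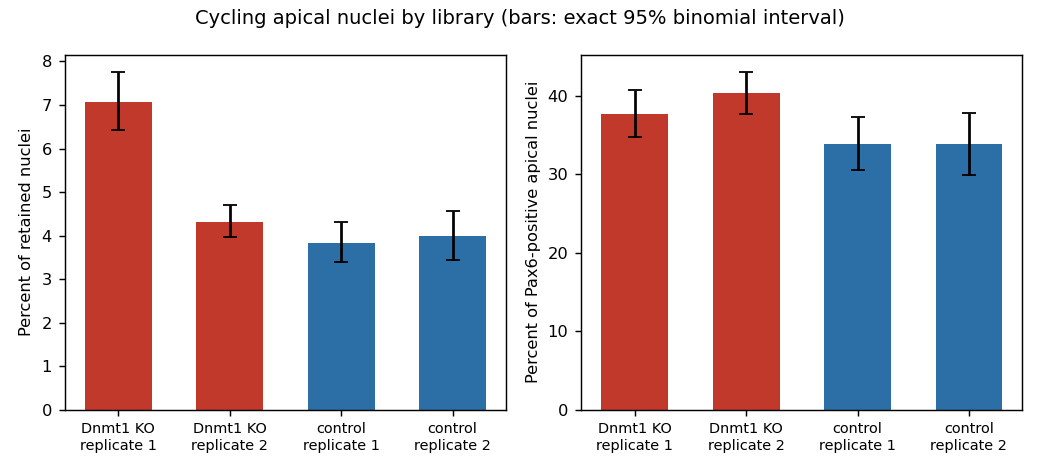
Percent of retained nuclei (left) and of all Pax6-positive apical nuclei (right) that met the rule, for each of the 4 libraries. Bars are single libraries and error bars exact 95% binomial intervals, which cover counting error only. Both Dnmt1 KO libraries lie above both control libraries in each panel, from 3.83% to 7.07% on the left and from 33.8% to 40.4% on the right.

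Promoters of the cell cycle genes are shown first because their elements differ between the S and G2/M lists. The sequences are the 300 bases from 250 before to 50 after the annotated start in RefSeq (table of build GRCm38.p6), each of which matched GRCm39 at exactly 1 place. Capitals mark motif matches on either strand. The CHR element was searched as TTTGAA. The CCAAT element was searched by its name. The E2F site was searched as TTCCCGC and, in its other form, as TTGGCGC. On the minus strand CCAAT reads as its reverse complement and can overlap an E2F match. Aspm (chr1:139382261-139382560, plus strand) and Top2a (chr11:98914966-98915265, minus strand) stand for mitosis genes, Cdk1 (chr10:69188693-69188992, minus strand) for the mitotic kinase, and Mcm6 (chr1:128287393-128287692, minus strand) for the replicative helicase.
Aspm: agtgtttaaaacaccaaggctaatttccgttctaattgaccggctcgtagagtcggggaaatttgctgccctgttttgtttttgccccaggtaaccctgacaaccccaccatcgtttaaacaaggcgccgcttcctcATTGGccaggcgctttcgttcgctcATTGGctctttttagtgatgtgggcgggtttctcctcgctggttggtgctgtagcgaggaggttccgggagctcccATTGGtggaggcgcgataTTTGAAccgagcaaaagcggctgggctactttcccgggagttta
Top2a: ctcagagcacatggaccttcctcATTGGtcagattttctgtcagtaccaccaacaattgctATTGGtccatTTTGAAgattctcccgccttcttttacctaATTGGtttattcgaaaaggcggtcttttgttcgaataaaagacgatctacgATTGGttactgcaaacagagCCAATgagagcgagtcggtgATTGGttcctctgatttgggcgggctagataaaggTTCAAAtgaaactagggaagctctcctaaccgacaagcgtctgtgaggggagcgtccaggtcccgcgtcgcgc
Cdk1: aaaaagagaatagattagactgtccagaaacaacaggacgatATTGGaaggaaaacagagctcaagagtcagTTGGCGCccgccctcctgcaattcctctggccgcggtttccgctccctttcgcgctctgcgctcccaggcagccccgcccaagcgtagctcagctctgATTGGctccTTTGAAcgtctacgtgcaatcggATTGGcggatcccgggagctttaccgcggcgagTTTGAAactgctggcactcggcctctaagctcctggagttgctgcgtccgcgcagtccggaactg
Mcm6: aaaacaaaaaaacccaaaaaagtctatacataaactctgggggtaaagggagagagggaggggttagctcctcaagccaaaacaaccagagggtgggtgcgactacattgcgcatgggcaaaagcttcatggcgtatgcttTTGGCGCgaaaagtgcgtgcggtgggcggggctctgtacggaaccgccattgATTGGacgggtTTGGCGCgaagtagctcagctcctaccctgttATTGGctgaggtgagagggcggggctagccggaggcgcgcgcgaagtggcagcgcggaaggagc
The Aspm promoter held 1 CHR and 3 CCAAT matches and no E2F match, Top2a 2 CHR and 6 CCAAT matches and no E2F match, Cdk1 2 CHR, 3 CCAAT and 1 E2F match, and Mcm6 2 CCAAT and 2 E2F matches and no CHR match. A CHR match was found in 65.4% of 52 promoters of G2/M list genes (47 of 54 genes had an entry), in 14.3% of 35 promoters of S list genes (31 of 43 genes) and in 17.9% of all 32851 promoters. An E2F match was found in 15.4%, 51.4% and 6.81% of the same promoters, and CHR together with CCAAT in 51.9%, 8.57% and 6.95%. The lists not used for phase showed like shares, with CHR in 63.6% of 33 promoters of other mitosis genes and E2F in 59.1% of 22 promoters of other replication genes. A match describes letters in a window and not binding of a factor.

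Against non-cycling apical nuclei of the same library (Pax6 at least 1, no Mki67 or Top2a and none of the excluded genes, 1291 nuclei), the members were set apart by genes of chromosome segregation and, to a smaller degree, of DNA replication. A gene was counted as higher or lower when the ratio of its CPM, after adding 1, was at least 1.5-fold in the same direction in 4 of 4 libraries. The rule chose the nuclei by their own counts, so these ratios are a description with no test. Mki67 and Top2a, which set the 2 populations apart, are themselves G2/M list genes. The larger ratios of mitosis genes than of replication genes thus followed in part from the rule. Of 9140 genes with at least 10 CPM in either population, 13.3% were higher and 10.1% lower. Of the G2/M list (Mki67 and Top2a left out) 50 of 51 measured genes were higher, with a median ratio of 27.7, and of the other mitosis genes 37 of 37, with a median of 32.1. Of the S list 30 of 39 were higher, with a median ratio of 2.60, and of the other replication genes 17 of 21, with a median of 2.52. The median over all genes was 1.12 (0.16 on the log2 scale), which became 0.03 on the log2 scale when TMM factors scaled the libraries.

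Many G2/M and mitosis genes were at a few CPM in the non-cycling nuclei, although the whole G2/M list still summed to 892 to 985 CPM there, with Ckap5, a microtubule polymerase, at 132 to 152 CPM and Cbx5, a heterochromatin protein, at 139 to 177 CPM. Kif11, the motor that pushes spindle poles apart, was at 507, 438, 368 and 415 CPM in the 4 libraries, against 3.05 to 4.00 CPM in non-cycling nuclei. Cenpe, a kinetochore motor, was at 547, 514, 416 and 468 CPM in the same order, against 6.57 to 10.9 CPM. Aspm was at 409.6, 412, 359 and 318 CPM, against 2.04 to 4.28 CPM. The values of all 3 genes did not overlap between the populations. Further genes of this kind were Knl1 of the outer kinetochore (379 to 471 CPM, ratios 56.6 to 144), Kif4, a chromosome arm motor (340.3 to 406 CPM, 82.4 to 111), Kif14 of cytokinesis (161 to 193 CPM, 76.1 to 117), Ttk, a spindle checkpoint kinase (176 to 219.9 CPM, 65.4 to 116), and Cdca2 (320.2 to 367 CPM, 83.3 to 172). Diaph3, an actin nucleating formin, had a level of 1199 to 1307 CPM and ratios of 13.7 to 24.7. Outside the lists the 10 genes of largest lowest-library ratio included Depdc1b (88.0 to 182), the DNA glycosylase gene Neil3 (62.3 to 88.0), Rtkn2 (58.3 to 118) and the helicase gene Pif1 (56.0 to 68.8). In the non-cycling nuclei Depdc1b was at most at 0.908 CPM and Pif1 at 0.227 CPM, so the size of such ratios depends on the 1 CPM added. Jpt1 was the G2/M gene that was not counted, with ratios of 1.07 to 1.75.

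The replication genes differed less, and the non-cycling nuclei also held them. Pola1, the catalytic subunit of the polymerase that primes DNA synthesis, was at 519, 496, 539.9 and 434 CPM in the 4 libraries, against 243, 161, 217 and 149 CPM in non-cycling nuclei. Atad2, a chromatin ATPase, was at 279, 275, 279 and 219 CPM, against 70.8, 44.4, 53.1 and 40.8 CPM. Both genes were higher in the members of each library, and neither overlapped. E2f8, a repressor of the E2F family, had the largest median ratio of the S list (16.1 to 21.4 over the libraries), and Clspn, a replication checkpoint adaptor (6.36 to 16.9), and Rad51ap1 of homologous repair (8.96 to 10.8) were also high. The helicase subunits lay at the other end, with ratios of 0.923 to 1.49 for Mcm6, 0.883 to 1.96 for Mcm4 and 1.01 to 1.15 for Mcm7. Of the other replication genes the ratios were largest for Fancd2 of crosslink repair (17.4 to 23.6), and Mcm2 (0.993 to 1.89) and Rfc3, a subunit of the clamp loader (1.09 to 1.94), were not counted. When each nucleus was thinned to 5000 transcripts before the rule was applied, 15 S list genes and 7 other replication genes were higher, and 679 of all genes in place of 1219.

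Of 13 G1 regulators measured, 9 were higher and none lower. E2f7, a repressor that acts with E2f8, had ratios of 7.15 to 10.5, the CDK inhibitor gene Cdkn2c 8.68 to 15.2, and Rbl1, which encodes the pocket protein p107, 3.69 to 4.75. Cdk6, the kinase of G1 progression, was at 360.3 to 471 CPM with ratios of 2.23 to 3.45. Cdk4, its relative (0.901 to 1.07), and Rb1, the retinoblastoma pocket protein (1.02 to 1.25), were near 1. Of 21 genes of primary microcephaly, a disorder of small brain size that has been traced to centrosome and spindle proteins of these progenitors, 18 were higher. The centriole gene Stil had ratios of 16.7 to 21.1, the spindle-pole gene Wdr62 6.13 to 11.2 and the centrosome gene Cdk5rap2 2.94 to 3.13, whereas Phc1 and Cep63, among those not counted, had lowest-library ratios of 0.786 and 1.20. Spindle orientation was represented by Gpsm2, the cortical anchor of spindle forces (119 to 126 CPM, ratios 5.66 to 7.57), and of 18 junction, polarity and orientation genes 3 were counted as higher (Gpsm2, Pals1 and Crb2) and 2 as lower (Numbl and Prkcz), shares near the 13.3% and 10.1% of all genes.

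**Figure D2:**
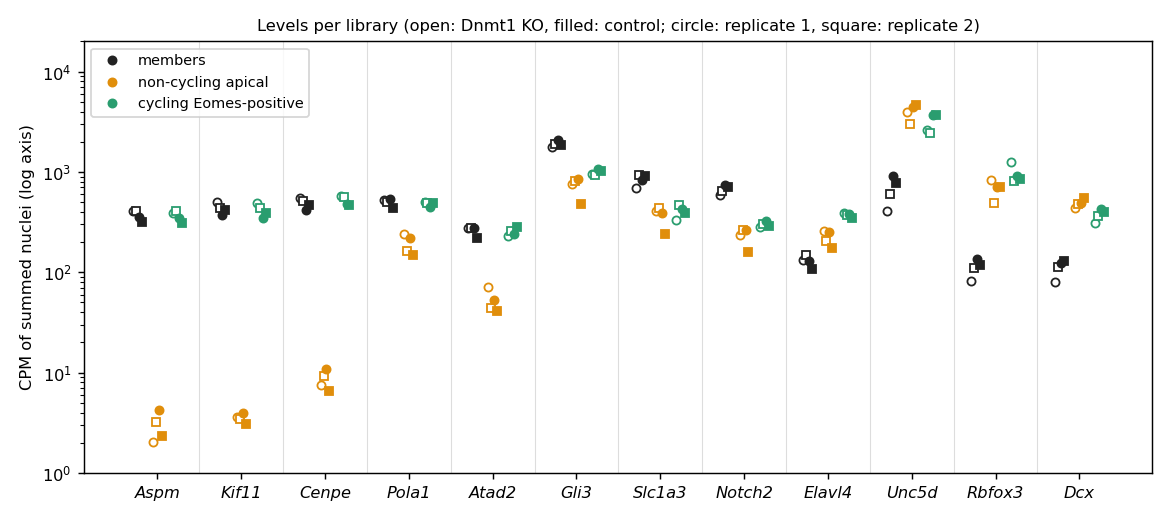
Levels in CPM (log axis) of 12 genes in members, non-cycling apical nuclei and cycling Eomes-positive nuclei, with 1 point per library. Aspm, Kif11 and Cenpe lie between 318 and 547 CPM in the members and at 10.9 CPM or below in non-cycling nuclei, at like levels in both cycling populations, whereas Gli3, Slc1a3 and Notch2 are highest in the members and Elavl4, Unc5d, Rbfox3 and Dcx lowest.

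The cell cycle genes did not separate the members from cycling Eomes-positive nuclei (the same counts of Mki67 and Top2a with at least 1 Eomes transcript and no Gad1, Gad2 or Lmx1a, 470 nuclei). Against this population 3.64% of 8933 genes were higher and 3.48% lower by the same criterion. None of 40 S, 51 G2/M, 21 other replication and 37 other mitosis genes was counted in either direction, with median ratios of 1.02, 1.03, 1.06 and 1.05 beside 1.02 over all genes. In the Eomes-positive nuclei Aspm was at 388, 409.7, 347 and 308 CPM, with ratios of 1.01 to 1.05. Among the G1 regulators Cdk6 had ratios of 0.587 to 0.757 and E2f1 0.508 to 0.794, below 1 in 4 of 4 libraries, and neither reached the criterion in all 4.

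Apical identity genes were often at higher levels in the members than in the other populations. Of 17 measured genes, 13 were higher than in non-cycling apical nuclei and 8 than in cycling Eomes-positive nuclei, with median ratios of 2.27 and 1.88, beside 13.3% and 3.64% of all genes. After thinning 5 of them were higher than in non-cycling nuclei, beside 679 of all 9191 genes. Gli3, the hedgehog pathway repressor of dorsal progenitors, was at 1788, 1898, 2073 and 1860 CPM in the 4 libraries. It was at 479.9 to 851 CPM in non-cycling and 935 to 1068 CPM in Eomes-positive nuclei, with no overlap. Slc1a3, the glial glutamate transporter, was at 692, 927, 826 and 919 CPM, against 241 to 441 and 329 to 470.4 CPM. Ddah1 (ratios 2.21 to 2.77 over Eomes-positive nuclei), Fabp7, the radial glial fatty acid carrier (2.22 to 2.68), Fgfr3 (2.33 to 2.42), Hes1, the Notch effector (2.01 to 3.57), Nes, the intermediate filament nestin (1.82 to 2.12), and Sox9 (1.64 to 2.59) were also counted. Sox2 (1.45 to 1.88) and Notch1 (1.35 to 1.55) fell short of the criterion in at least 1 library. Lhx2, the cortical selector factor (0.717 to 0.853), and Prom1 (0.718 to 1.04) were not higher than in Eomes-positive nuclei in any library but 1 for Prom1.

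Genes linked to outer radial glia, the progenitors that have left the ventricle, were present in the members as well. Ptprz1, a receptor phosphatase, was at 1684 CPM in KO 1, 2630 CPM in KO 2 and 2284 and 2218 CPM in the controls, with ratios of 1.80 to 2.27 over Eomes-positive nuclei. Tnc, the matrix protein tenascin, was at 987, 2002, 1465 and 1573 CPM in the same order, with ratios of 2.26 to 3.21. KO 1 was lowest for both genes. Of 6 measured genes of this list, 4 were higher than in Eomes-positive nuclei (also Il6st and Acsbg1), beside 3.64% of all genes. Against non-cycling apical nuclei 2 were higher (the same Il6st and Acsbg1), beside 13.3% of all genes. Hopx (11.6 to 36.2 CPM) and Lifr (18.7 to 32.1 CPM) were counted in neither comparison. Against the non-cycling nuclei, Hopx lay above in each library (5.31 to 22.5 CPM there) and Lifr below (26.8 to 37.2 CPM there).

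In the Notch pathway receptor genes were at higher levels and the ligand gene Dll1 at a lower level than in Eomes-positive nuclei. Notch2 (586 to 741 CPM) had ratios of 2.07 to 2.45 over Eomes-positive nuclei and Notch3 (78.4 to 99.9 CPM) of 2.02 to 2.72. Lfng, a glycosyltransferase that tunes Notch receptors, had ratios of 2.12 to 2.63, whereas its relative Mfng had 0.062 to 0.19 and the ligand gene Dll1 0.107 to 0.396. In all, 4 of 14 genes were higher and 2 lower than in Eomes-positive nuclei, and 6 of 13 were higher and 1 lower than in non-cycling apical nuclei. Among all genes 3.64% were higher and 3.48% lower in the first comparison and 13.3% and 10.1% in the second, so that 1 of 13 lower lies near the background. The intermediate progenitor list, with Eomes left out, was lower in 6 of 7 measured genes against Eomes-positive nuclei, among them Elavl4, a neuronal RNA-binding protein (0.31 to 0.40), the proneural factor gene Neurog2 (0.17 to 0.40) and Sstr2 (0.101 to 0.228).

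Transcripts of newborn excitatory neurons were the reverse of the identity genes. All 12 measured genes of the list were lower than in non-cycling apical nuclei, with a median ratio of 0.260, and 7 of 12 were lower than in Eomes-positive nuclei, with a median of 0.430, beside 10.1% and 3.48% of all genes. Unc5d, a netrin receptor of migrating neurons, was at 411, 607, 909 and 775 CPM in the 4 libraries, against 3005 to 4671 CPM in non-cycling nuclei. Rbfox3, the splicing factor NeuN, was at 81.5, 109, 137 and 117 CPM, against 488 to 834 CPM. Dcx, a microtubule protein of migrating neurons, was at 80.8, 112, 125 and 129 CPM, against 438 to 547 CPM. Neuronal genes were thus carried by the Pax6-positive nuclei that lacked Mki67 and Top2a, which were selected without regard to neuronal genes other than Eomes, Gad1 and Gad2. Outside the lists, Slc17a6, the vesicular glutamate transporter of young excitatory neurons (0.046 to 0.181), Srrm4, a neuronal splicing regulator (0.141 to 0.199), and the neuronal transcription factor gene Myt1l (0.134 to 0.202) were among the 10 lowest against the same nuclei. Against Eomes-positive nuclei the 10 lowest included Kif26b (0.0806 to 0.156), Myt1 (0.115 to 0.176) and Scrt2 (0.0863 to 0.217), and the 10 highest included Plce1, a phospholipase gene (862 to 999.9 CPM, 2.48 to 2.90), Grik1 (2.45 to 3.36), Ccdc80 (2.83 to 3.05) and Tram2 (2.44 to 3.14).

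**Figure D3:**
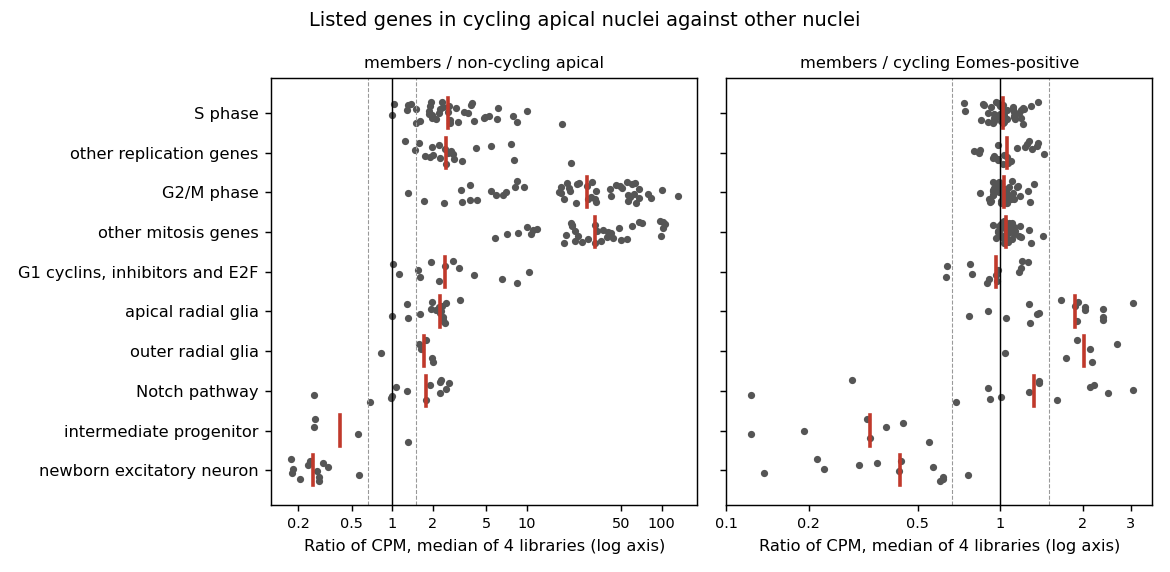
Ratio of CPM between members and non-cycling apical (left) or cycling Eomes-positive nuclei (right) for the measured genes of 10 lists, as the median of 4 libraries on a log axis. Each point is a gene, the red bar the median of the list, and dashed lines mark 1.5-fold. The mitosis lists reach medians of 27.7 and 32.1 on the left and lie near 1 on the right, where the medians of the apical, outer radial glia and Notch lists lie above 1 and those of the intermediate progenitor and neuronal lists below it.

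Within the members the balance of S and G2/M transcripts ran over a wide range. The S list made up medians of 23.7%, 21.8%, 28.4% and 23.6% of the S plus G2/M transcripts of a nucleus. The middle 50% of nuclei lay between 9.66% and 42.9% in KO 1 and between 11.9% and 49.4% in control 1. The members of each library were ranked by this percent, and the lowest and highest of 3 equal groups (133, 173, 90 and 65 nuclei each) were compared. These groups are ranges of a continuous score and not stages. The S-leaning nuclei held at least 34.7% to 43.6% S transcripts, according to the library, and the G2/M-leaning nuclei at most 12.5% to 15.9%. Median transcripts per nucleus were 12588 to 18924 in the S-leaning and 14315 to 24214 in the G2/M-leaning nuclei.

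Genes outside the phase lists followed the ranking. Of 8981 genes, 5.26% were higher and 2.95% lower in the S-leaning nuclei at 1.5-fold in 4 of 4 libraries. Of 22 other replication genes 18 were higher, with a median ratio of 3.51, and of 37 other mitosis genes 23 were lower and 2 higher, with a median of 0.435, beside a median of 1.04 over all genes. Lig1, the ligase that joins Okazaki fragments, was at 195, 171, 179 and 181 CPM in the S-leaning nuclei, against 8.73, 10.3, 13.7 and 13.0 CPM. Dnmt1 itself, whose protein copies methylation onto new DNA, was at 233, 152, 210.0 and 190.1 CPM, against 49.2, 34.7, 54.7 and 50.7 CPM. Both genes were higher in the S-leaning nuclei of each library, and the ratio for Dnmt1 was 3.70 to 4.67. Aspm was at 86.1, 92.7, 93.6 and 79.3 CPM in S-leaning and at 767, 757, 637 and 636 CPM in G2/M-leaning nuclei, a ratio of 0.113 to 0.148.

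Cyclins and E2F factors took different places in the ranking. Ccne1, cyclin E1 of the G1 to S transition, had ratios of 5.73 to 12.3, Ccna2, cyclin A2, 0.296 to 0.497 and Ccnb1, cyclin B1 of mitotic entry, 0.0606 to 0.107. The activator E2f1 had ratios of 7.64 to 15.2 and E2f2 of 6.13 to 13.4, and 7 of 14 G1 regulators were higher in the S-leaning nuclei. Ccnd2 (0.789 to 1.09) and Cdk6 (0.816 to 1.36) stayed near 1. The 2 mitosis list genes that were higher were Mybl2, the MuvB partner that acts before FOXM1 (at least 7.65), and Ncapg2, a condensin II subunit (1.94 to 3.46). Outside the lists Tcf19 (12.4 to 24.7), Pla2g4c (9.68 to 21.9) and Aim2 (7.36 to 16.6) were among the genes of largest ratio. Among those of smallest ratio were Pif1 (0.00945 to 0.0258), Hyls1, a centriole gene (0.0173 to 0.0973), and the importin gene Kpna2 (0.0671 to 0.137). The choice of these 6 followed their values.

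In the identity lists few genes were counted, as among all genes (5.26% higher and 2.95% lower). None of 17 apical, 6 outer radial glia, 12 Notch and 11 newborn neuron genes was higher in the S-leaning nuclei, and Vim, the intermediate filament vimentin of the apical list, was the only one that was lower (0.490 to 0.656), with median ratios of 0.883, 1.06, 0.885 and 1.21.

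**Figure D4:**
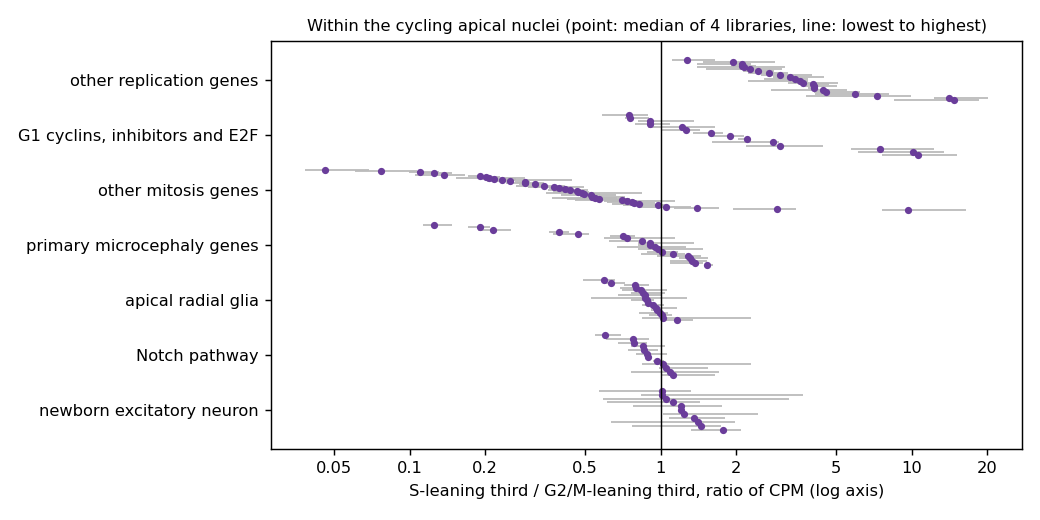
Ratio of CPM between S-leaning and G2/M-leaning members for genes outside the phase lists, on a log axis, with points for the median of 4 libraries and lines from the lowest to the highest library. Replication genes reach a median of 3.51 and mitosis genes 0.435, whereas apical, Notch and neuronal genes lie around 1.

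Against all other 28271 retained nuclei, of any type, 24.5% of 9256 genes were higher and 14.5% lower, with a median ratio of 1.21. Of the S list 36 of 39 genes were higher, of the G2/M list 50 of 51, of the other replication genes 21 of 21 and of the other mitosis genes 37 of 37, with median ratios of 4.03, 12.4, 3.88 and 13.8. Of the 17 apical genes 15 were higher, with a median ratio of 5.05, and of the 12 newborn neuron genes 12 were lower, with a median of 0.238. Of 12 genes of DNA methylation 5 were higher, of 8 gliogenic factors 4, and of 8 receptors of ephrin-B2 and neurexin 3. When the comparison was with non-cycling apical nuclei the counts were 4, 2 and 1, beside 13.3% of all genes, and that of the receptors lies near this share. Dnmt3a, a de novo DNA methyltransferase, was at 233, 155, 219 and 208 CPM in the 4 libraries, against 88.2 to 111 CPM in cycling Eomes-positive nuclei.

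By genotype, the members took a larger share of nuclei in both Dnmt1 KO libraries than in both controls. The share of retained nuclei was 7.07% (exact 95% binomial interval 6.42 to 7.77) and 4.32% (3.96 to 4.70) in KO 1 and KO 2, and 3.83% (3.40 to 4.31) and 3.98% (3.45 to 4.56) in control 1 and control 2. KO libraries averaged 5.70% ± 1.95 (SD, n = 2) and controls 3.90% ± 0.102 (SD, n = 2). They differed by 1.79 percentage points, with p = 0.333 in a two-sided exact permutation test over libraries, the smallest p that 2 against 2 libraries allow. KO 1 carried most of it, and without that library the difference was 0.415 points. Without KO 2 it was 3.17 points, and within batch 1, without control 2, it was 1.87 points. As a share of all Pax6-positive apical nuclei the members made up 37.7% and 40.4% of 1057 and 1290 nuclei in KO 1 and KO 2 and 33.9% and 33.8% of 796 and 577 nuclei in the controls. KO libraries averaged 39.1% ± 1.87 (SD, n = 2) and controls 33.9% ± 0.0878 (SD, n = 2), which differ by 5.21 points (exact permutation p = 0.333) and 5.15 points within batch 1. The libraries did not overlap in either share under any of the 5 other settings of filter, threshold, depth or doublets, in which the second difference ranged from 4.38 to 10.0 points. The 10.0 points came with a filter on mapped reads, under which control 2 held 100 members in place of 195, or 23.9% of its apical nuclei. KO 1, KO 2 and control 1 then held 389, 505 and 259 members in place of 399, 521 and 270. The non-cycling nuclei of this denominator carried newborn neuron transcripts (list sums of 8086, 7172, 9282 and 10446 CPM, against 1848 to 2575 CPM in the members), and the part of such nuclei in the share was not tested.

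Of all nuclei with at least 2 transcripts of both Mki67 and Top2a, the members were 67.3%, 49.7%, 45.9% and 51.7% in the 4 libraries. Cycling Eomes-positive nuclei made up 31.3% in control 2 and at most 16.2% in the others, and cycling nuclei with Gad1 or Gad2 7.08%, 15.7%, 28.2% and 10.1%. Without thinning, the share of Eomes-positive nuclei stood apart in control 2, and that of Gad-positive nuclei in control 1. Median transcripts of the Eomes-positive nuclei were 15354, 13176, 16274 and 19734, highest in control 2. They numbered 89, 170, 93 and 118, beside 399, 521, 270 and 195 members. With nuclei thinned before the rule, they numbered 36, 81, 39 and 38, beside 273, 351, 185 and 130 members. The part of depth in the share of control 2 was not tested. Cycling Lmx1a-positive nuclei made up 4.55%, 2.96%, 1.36% and 1.59%, with both Dnmt1 KO libraries above both controls.

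The S share of the S and G2/M transcripts of all members was 24.1% in both Dnmt1 KO libraries and 27.6% and 24.3% in control 1 and control 2. The difference of -1.88 points (exact permutation p = 0.333) was -0.268 points without control 1 and -3.49 points within batch 1. With a filter on mapped reads in place of transcripts it was -3.85 points (24.1% ± 0.0312 against 28.0% ± 0.507, SD, n = 2 each), with no overlap of the libraries and the same exact permutation p = 0.333. Under this filter control 2, the library with most mapped reads per transcript, held 100 members in place of 195. Its S share was then 28.4% in place of 24.3%. The libraries did not overlap at a threshold of 1 either (-2.27 points). They overlapped at a threshold of 3, after thinning, without doublets and with the other replication and mitosis lists.

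No gene passed the test by genotype within the members. Counts were summed over the members of each library and tested with edgeR's quasi-likelihood test with Benjamini-Hochberg adjustment, and 0 of 13011 genes (0% in either direction) reached an adjusted p of 0.05. An unadjusted p under 0.05 was found for 822 genes (6.32%), the smallest adjusted p was 0.755, and DESeq2 called 15 genes higher and 2 lower. Within batch 1, without control 2, edgeR again called 0 genes. In counts simulated for the same libraries, with a spread (dispersion) shared by all genes, the edgeR fit recovered 43% of 2-fold and 93% of 4-fold changes. Differences in spread between genes and those of sex and batch were not simulated, so these shares may not hold for the real counts. The genes with the smallest unadjusted p and at least 20 CPM, given here as not past the threshold, were led by Rmst, a long noncoding RNA that binds SOX2 (chr10:91906899-92001132, minus strand, GRCm39). Rmst was at 1002, 963, 400.4 and 312 CPM in the 4 libraries. The log2 difference between genotypes was 1.49 (SE 0.151, adjusted p = 0.755 by edgeR, DESeq2 adjusted p = 3.27e-12) and 1.32 within batch 1, and over all settings the adjusted p ranged from 1.51e-29 to 0.991.

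Of the 10 genes so chosen, 9 had higher values in Dnmt1 KO. None overlapped between genotypes, which follows from the choice by p, and neither did 38.9% of all genes tested. Rgcc, a regulator of the cell cycle kinase CDK1, had lower values, with 27.4 and 33.5 CPM against 62.7 and 65.8 CPM. Mecom, a zinc finger factor gene, was at 25.3 and 47.6 CPM against 7.98 and 6.17 CPM (a log2 difference of 2.41, SE 0.369), but the log2 difference was 0.12 when nuclei with 1 transcript of Mki67 or Top2a were let in. Ephb1, a receptor of ephrin-B ligands, was at 592 and 603 CPM against 366 and 407 CPM (0.66, SE 0.110). The others were Slc24a3 (1.07), Mgat4c (1.54), Prkg1 (0.78), Pappa (1.11), Prex2 (1.26) and Gria4 (0.69), by log2 fold change, each with an edgeR adjusted p of 0.755. The value for Mgat4c was 1.01 without called doublets. In non-cycling apical nuclei Rmst, Slc24a3, Prkg1, Pappa and Ephb1 also had higher values in Dnmt1 KO without overlap. Rmst was there at 1601 and 753 CPM against 316 and 105 CPM. Mgat4c, Rgcc, Mecom, Prex2 and Gria4 overlapped in those nuclei. Both populations come from the same libraries, so the second is no independent repeat. The share of all genes without overlap in the non-cycling nuclei is not given here. Of these 10 genes DESeq2 called all but Gria4 (adjusted p = 0.0676, with 1.15e-04 to 0.991 over all settings). It also called Slc44a5, Cadps, Slit2, Mybpc1, Nebl, Tmem132c and Pdlim3 higher and Cmss1 lower, which overlaps Filip1l, so that reads of the pair may be shared. Slit2, a repellent of migrating neurons and axons, had 771 and 693 CPM, and controls 451 and 313 CPM.

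The sum of the 4 markers of the hippocampal granule lineage was also higher in Dnmt1 KO, with at least 202 CPM in the members against at most 146 CPM in those of controls. Most of it was Lef1, at 217, 149.6, 118 and 64.9 CPM in the 4 libraries, with Prox1 at 35.3, 52.1, 27.7 and 31.3 CPM. Lef1 (log2 fold change 1.03) and Prox1 (0.60) did not overlap between genotypes, with higher values in Dnmt1 KO, as did 15.3% of all genes tested. They were the 2 that could be tested, and Calb2 and Neurod4 were too low for a test. In non-cycling apical nuclei the sums were 308, 195, 105 and 73.5 CPM in the same order. The 5 cortical hem markers left after the rule summed to 43.9 and 30.8 CPM in the members of Dnmt1 KO and to 22.8 and 27.9 CPM in those of controls. In non-cycling apical nuclei their sums overlapped, at 88.1, 64.1, 76.8 and 68.8 CPM. The part of these differences in the genotype comparison was not tested.

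**Figure D5:**
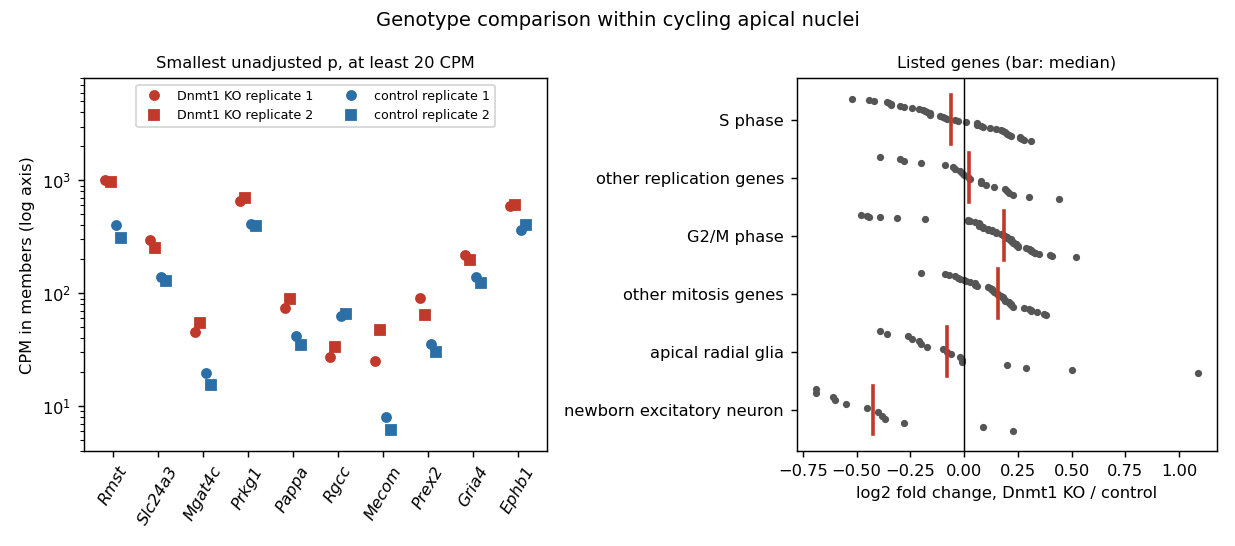
Left, CPM (log axis) in the members of the 10 genes with the smallest unadjusted p and at least 20 CPM, with 1 point per library. Right, log2 fold change of Dnmt1 KO over control for the tested genes of 6 lists, with the median as a red bar. No gene shown passed the threshold by edgeR, DESeq2 called all on the left but Gria4, and the medians run from 0.19 for the G2/M list to -0.42 for the neuronal list.

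Gene lists leaned in different directions by genotype, with no listed gene past the threshold by edgeR, and Ephb1 of the ephrin receptors called by DESeq2 (adjusted p = 0.0173). Of 52 tested G2/M genes 46 had a positive log2 fold change, with a median of 0.19 beside -0.02 over all genes. In 30 of the 52 both Dnmt1 KO libraries lay above both controls, as did 15.3% of all genes tested. Of 37 other mitosis genes 31 were positive, with a median of 0.16, and 19 did not overlap with higher values in Dnmt1 KO. Hmmr, a spindle assembly protein, was at 154 and 159 CPM against 122 and 118 CPM (0.41, SE 0.0995). Sgo2a, which protects centromeric cohesion, was at 139 and 134 CPM against 105 and 109.8 CPM (0.38, SE 0.0986). Aspm had a log2 fold change of 0.31 (SE 0.111, edgeR adjusted p = 0.755). These medians kept their sign under every setting tried, at 0.15 to 0.23 for the G2/M and 0.09 to 0.19 for the mitosis list, the lower value of each without KO 1, and were 0.21 and 0.18 within batch 1. In cycling Eomes-positive nuclei the G2/M list summed to 9101 and 9032 CPM in Dnmt1 KO and to 7943 and 7908 CPM in controls. The mitosis list there summed to 6906 and 6927 CPM against 6068 and 5866 CPM. The lean was thus not particular to the members, while in non-cycling apical nuclei both sums overlapped. Top2a, which the rule used, was at 815 and 792 CPM against 619 and 672 CPM, whereas Mki67 overlapped, at 1000 and 909 CPM against 1028 and 773 CPM. The S list had a median of -0.06 and the other replication genes of 0.03, and both medians changed sign under some settings, with ranges of -0.18 to 0.06 and -0.05 to 0.14.

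The newborn neuron list leaned the other way. Of 12 tested genes 10 had a negative log2 fold change, with a median of -0.42, and 9 of the 12 did not overlap with lower values in Dnmt1 KO, as did 23.6% of all genes tested. Bcl11b, a factor of deep layer neurons, was at 45.3 and 38.9 CPM against 55.2 and 74.7 CPM (-0.60, SE 0.180). Unc5d had a log2 fold change of -0.69 (SE 0.211), with an edgeR adjusted p of 0.755. The median was -0.56 to -0.22 over all settings and -0.36 within batch 1. This lean was not particular to the members. The list also summed lower in Dnmt1 KO in cycling Eomes-positive nuclei (6137 and 5589 against 7388 and 7125 CPM). The same held for non-cycling apical nuclei (8086 and 7172 against 9282 and 10446 CPM) and for all other retained nuclei together (7753 and 7025 against 8328 and 8821 CPM). The 17 apical genes had a median of -0.08, with 4 positive and 13 negative values, of which Hes5, a Notch effector, was the most positive (log2 fold change 1.09, SE 0.318).

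Dnmt1 had overlapping values in these nuclei, at 133, 93.1, 125 and 114 CPM in the 4 libraries (log2 fold change -0.05, SE 0.179, edgeR adjusted p = 0.960), and its sign turned in 2 of the 4 comparisons with a library left out. Counts over the whole gene do not show whether the floxed exons were present. Of the other 11 genes of DNA methylation none passed the threshold. Uhrf1, which brings DNMT1 to replicated DNA, had a log2 fold change of -0.42 (SE 0.138), and Dnmt3b, a de novo methyltransferase, of 0.60 (SE 0.214). Epha4 (0.08, SE 0.155), a receptor of ephrins, and Nlgn1 (0.00, SE 0.242), a neurexin receptor, had overlapping values.

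Whether the genotype difference itself differed between populations was tested as an interaction with edgeR's quasi-likelihood test. Against non-cycling apical nuclei 0 of 13571 genes passed (770, 5.67%, at an unadjusted p under 0.05, smallest adjusted p = 0.0615), and against cycling Eomes-positive nuclei 0 of 12921 (539, 4.17%, smallest adjusted p = 0.550), and no other tool was run on it. The smallest adjusted p belonged to Abcc9 and Dlc1, both with overlapping values in the members (0.338 and 9.11 against 0.443 and 0.638 CPM for Abcc9). In the non-cycling nuclei Abcc9 had 0.227 CPM in KO 1, 3.98 CPM in KO 2, 14.0 CPM in control 1 and 15.3 CPM in control 2. Abcc9 is a marker of mural cells, and the 5 mural markers summed to 9.29, 35.0, 25.7 and 15.5 CPM in the members and to 10.7, 29.8, 50.8 and 35.0 CPM in the non-cycling nuclei. Their part in the interaction was not tested.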

How the data were processed

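Nuclei from frozen medial neocortex of mouse embryos at E16.5 were profiled with a split-pool barcoding kit (Parse Evercode), with 1 library per sample and 2 samples per genotype. Reads were run by the authors through Trailmaker (build GRCm39, mm39), and they deposited unfiltered transcript counts per barcode, collapsed by molecular identifier. The Trailmaker version is not given in the sources used here, and the submitters' processing notes name R 4.4.1 and Seurat 5.0.1.9001. Libraries held 96455278 to 201141704 transcripts.

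Barcodes with 1500 to 60000 transcripts were kept, the rule was applied to raw counts, and counts were summed per library and population and scaled to an equal total (CPM). Ratios between populations were taken after adding 1 CPM, for genes with at least 10 CPM. Genotype and its interaction with population were tested on sums with edgeR 4.0.16 in R 4.3.3 (quasi-likelihood, TMM, all 4 libraries), with DESeq2 1.42.0 as an alternative. Shares were compared with two-sided exact permutation tests (scipy 1.17.1) and have exact (Clopper-Pearson) 95% binomial intervals, which cover counting error only. Doublets were called with Scrublet (scanpy 1.11.5, expected rate 5%) and kept except in one alternative. Shares of nuclei with a transcript were also computed after thinning to 5000 transcripts. Neurod6-positive nuclei held at least 2 Neurod6 transcripts and no Mki67, Top2a or Pax6 transcript. Python 3.11.15 and numpy 2.4.6 were used, and 56323 of 56884 gene identifiers matched GENCODE vM39. The edgeR fit was tested on data simulated with a dispersion shared by all genes.

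The members and gene lists were chosen with earlier results of these data known. Genes named by genotype were the 10 of smallest unadjusted p with at least 20 CPM, the rule genes, Aspm, Dnmt1, Epha4 and Nlgn1. From each list the 5 genes of highest CPM and those of the 2 largest and 2 smallest ratios could be named, and outside the lists the 10 of largest lowest-library ratio. Any other gene was named as an example after its values were seen. Alternatives were another scaling, no filter on low counts, other thresholds of Mki67 and Top2a, a filter on mapped reads, thinning, leaving out doublets or each library, and a replicate block. Some items are not reported here.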

Additional observations from a re-analysis of the deposited data

How the results depend on the processing

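With 2 libraries per genotype no exact test could pass, and apical nuclei with S transcripts but few of Mki67 or Top2a fall below the rule. The numbers of genes called higher and lower in Dnmt1 KO, 0 and 0 by edgeR, were 15 and 2 by DESeq2 and 208 and 122 without a filter on low counts. With 1 library left out they were 0 to 95 and 0 to 186. They were 95 and 9 without Dnmt1 KO replicate 1, 86 and 186 without Dnmt1 KO replicate 2, and 0 without either control library. In those fits the lone library is assumed to vary like the others, and the cause was not tested. The interaction with non-cycling apical nuclei, 0 genes, was 229 without the filter and 0 to 4 with a library left out (Abcc9, Dlc1, Trpm3 and Ebf1 without Dnmt1 KO replicate 1). That with cycling Eomes-positive nuclei, 0 genes, was 105 without the filter, 1 without doublets (Gm29683) and 1 to 17 with a library left out, namely 3 without Dnmt1 KO replicate 1 (Flt1, Reln, Hs3st4), 17 without Dnmt1 KO replicate 2, 3 without control replicate 1 (Mecom, Cdh12, Tshz2) and 1 without control replicate 2 (Epha6). These genes were named after their values were seen. Genes higher than in non-cycling apical nuclei numbered 1219, and 679 after thinning to 5000 transcripts, in nuclei that all hold the same number.

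With a library left out the log2 fold change of Dnmt1 (-0.05) ran from -0.32 to 0.18. It was 0.18 without Dnmt1 KO replicate 2 and 0.02 without control replicate 1, and that of Epha4 (0.08) ran from -0.13, without Dnmt1 KO replicate 1, to 0.27. That of Nlgn1 (0.00) was -0.04 with the replicate block, -0.02 at a threshold of 3, -0.38 without Dnmt1 KO replicate 2 and -0.12 without control replicate 1, with a highest value of 0.30 without Dnmt1 KO replicate 1. The median of the S list (-0.06) was -0.18 with a filter on mapped reads (12 genes positive and 30 negative), -0.12 without control replicate 2, 0.01 without Dnmt1 KO replicate 2 and 0.06 without control replicate 1. The median of the other replication genes (0.03) was -0.05 with a filter on mapped reads, -0.04 without Dnmt1 KO replicate 1, -0.03 without control replicate 2 and 0.14 without Dnmt1 KO replicate 2. The settings for list medians and for populations without each library were chosen after seeing the data. Leaving out each library in turn left 30 to 32 S list genes, 50 G2/M genes and 12 newborn neuron genes counted against non-cycling apical nuclei.

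Same-numbered libraries were alike in Xist, and no label ties them by litter or day. The correlation of their deviations was 0.0298 over 13014 genes, so the numbers were not taken to pair the libraries. With the replicate block edgeR called 0 genes higher and 0 lower in Dnmt1 KO (842 at an unadjusted p under 0.05, smallest adjusted p = 0.141).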

Other observations

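Single libraries stood apart for some genes of the members. Of 6497 genes with at least 20 CPM in a library, 59 (0.908%) lay at least 2-fold below the other 3 libraries in Dnmt1 KO replicate 1, against 2, 0 and 9 genes in Dnmt1 KO replicate 2 and control replicates 1 and 2. Those above the others numbered 5, 11, 2 and 8 in the same order. Reln, the secreted protein of Cajal-Retzius cells, had 13.4 CPM in Dnmt1 KO replicate 1 but 116, 154 and 117 CPM elsewhere. Egfr, the receptor of epidermal growth factor, was at 5.91 CPM against 70.4, 52.1 and 32.3 CPM. Luzp2 was at 27.7 CPM against 316, 344 and 137 CPM, and Tafa2 at 11.2 CPM against 188, 154 and 97.9 CPM. Eya1, a phosphatase and transcription cofactor, was highest in Dnmt1 KO replicate 1, at 559.7 CPM against 244, 234 and 175 CPM. Trpm3, a cation channel gene, was highest in Dnmt1 KO replicate 2, at 262 CPM against 41.1, 45.9 and 68.7 CPM. The choice of these genes followed their values, and no test was made, since each rests on 1 library.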
